A study of Mus musculus with 39 samples.

Results

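The 10 named genes of the Notch pathway described here were followed across all groups of the series: the 4 receptors Notch1, Notch2, Notch3 and Notch4, the 4 ligands Jag1, Jag2, Dll1 and Dll4, and the target genes Hes1 and Hey1. They were chosen by name, with earlier results of these data known. The study reports lower expression of Notch components in P8 INSL3-KO gubernaculum from the same libraries, so the values there are not independent of that report. All 10 were found among the 21561 Ensembl genes that both deposited tables list. RNA was sequenced from male C57BL/6J mice of 3 genotypes: wildtype (WT), INSL3-KI, in which minke whale INSL3 cDNA replaces the coding sequence at the mouse locus in homozygous form and without the neomycin cassette, and INSL3-KO, the knockout of INSL3. INSL3 is the Leydig cell hormone that drives the growth of the gubernaculum, the cord that guides the testis toward the scrotum, through its receptor RXFP2. Gubernaculum of all 3 genotypes was taken at postnatal day 8 (P8), and at P23 that of WT and INSL3-KI. Testis covered all 3 genotypes at P8 and again at P23, and at P40 only WT with INSL3-KI. No treatment was given. Each of the 13 groups had 3 libraries, which the study describes as biological replicates, and how the INSL3-KO allele was made is not given in the sources used here.

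Notch receptors are single-pass membrane proteins that are activated by ligands on a neighbouring cell. Ligand binding lets ADAM proteases and then gamma-secretase cut the receptor, and the freed intracellular domain enters the nucleus, where it joins the DNA-binding protein RBPJ and Mastermind-like coactivators to turn on target genes such as the Hes and Hey repressors. In developing muscle the pathway keeps progenitors from differentiating, in blood vessels Notch4 and Dll4 mark the endothelium and Notch3 the mural cells around it, and in the testis Jag1, Notch1 and the Hes and Hey genes take part in signalling between germ cells and Sertoli cells.

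The libraries held between 29861447 and 45260372 counts, with a median of 36944626. The labels were checked on Insl3 and Rxfp2. In P8 testis Insl3 stood at 63.4 to 79.5 CPM (read counts divided by library size, with TMM factors within a tissue) in WT, 0.379 to 0.725 in INSL3-KI and 13.4 to 17.8 in INSL3-KO, so that it was low but not at 0 in the P8 INSL3-KO testis, while the INSL3-KO libraries of P23 testis stood at 0 to 0.115 against 840 or more in WT. In P8 gubernaculum Insl3 was at 0 in every INSL3-KI and INSL3-KO library. In P23 gubernaculum it measured 0.331, 0.863 and 0 CPM in INSL3-KI replicates 1 to 3 and 1.07, 0.284 and 0.627 in WT. At these low levels it did not separate the 2 P23 groups. Rxfp2 stood at 39.2 to 49.4 CPM in WT P8 gubernaculum and at 0.349 to 1.77 in WT P8 testis. The values are held in 2 tables, one of which has 12 libraries, all of INSL3-KO together with WT testis at P23. A comparison of INSL3-KO with WT or INSL3-KI at P8, of INSL3-KI with INSL3-KO at P23, and of INSL3-KI with WT in P23 testis therefore also compares the tables: there the genotype and the table cannot be told apart. The 3 libraries of INSL3-KI P23 gubernaculum all differed from each other. Their chi-square per degree of freedom over genes was 409 (replicates 1 and 2), 404 (replicates 1 and 3) and 869 (replicates 2 and 3). Which library stood apart depended on the marker list, as described with the P23 values. In WT P23 gubernaculum replicate 1 differed by 226 and 220 from the others, which differed by 78.0. In testis, replicate 2 of INSL3-KI at P8, replicate 3 at P23 and replicate 1 at P40 stood apart from their groups: chi-square per degree of freedom over genes was 107 and 126, 244 and 312, and 283 and 278 against the other libraries of the group, which differed from each other by 13.5, 20.5 and 10.3.

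In P8 gubernaculum INSL3-KO held less Notch2, Notch3, Jag2 and Dll1 and more Jag1 than WT, and INSL3-KI held more Jag1 and less Dll1. A gene was called changed at an edgeR adjusted p under 0.01 over all genes tested with a fold change of at least 2. In INSL3-KO against WT, 4 of the 10 members were called lower (15.2% of all genes tested were called lower) and 1 was called higher (15.5% of all genes). In INSL3-KI against WT, 1 member was called lower (9.70% of all genes) and 1 higher (14.4%). The median log2 fold change of the members was -0.62 in INSL3-KO, where that of all genes tested was 0.035, and 0.0020 in INSL3-KI, where that of all genes was 0.023. These medians hold for TMM scaling, and several INSL3-KO values changed sign under another fit given below. Both mutants were compared with the same WT libraries.

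Among the receptors, Notch3, which is expressed mainly in mural and smooth muscle cells, had the largest fold change in INSL3-KO. The gene lies at chr17:32120820-32166852 on the minus strand (GRCm38). Notch3 measured 128, 177 and 237 CPM in WT replicates 1 to 3, 109, 104 and 105 in INSL3-KI, and 33.4, 31.3 and 30.3 in INSL3-KO. The 3 groups did not overlap, and the WT libraries were the most dispersed. The log2 fold change in INSL3-KO was -2.52 (standard error, SE, 0.22, edgeR adjusted p = 5.8e-05), and in INSL3-KI it was -0.73 (SE 0.20, edgeR adjusted p = 0.015), which did not pass the threshold. Compared directly, Notch3 in INSL3-KI exceeded INSL3-KO by 1.74 on the log2 scale (SE 0.064, edgeR adjusted p = 3.9e-06).

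Notch2, a broadly expressed receptor at chr3:98013527-98150361, measured 107, 162 and 181 CPM in WT, 107, 112 and 99.8 in INSL3-KI and 60.7, 65.7 and 61.3 in INSL3-KO. INSL3-KO lay below every WT library, with a log2 fold change of -1.27 (SE 0.19, edgeR adjusted p = 7.7e-04), while the INSL3-KI libraries overlapped WT (log2 fold change -0.46, edgeR adjusted p = 0.064). Notch1, the receptor best known from muscle and blood progenitors, measured 75.7, 107 and 126 CPM in WT, 82.1, 99.8 and 94.1 in INSL3-KI and 63.1, 71.9 and 69.8 in INSL3-KO. It was not called in either mutant (log2 fold change -0.12, edgeR adjusted p = 0.60 in INSL3-KI, and -0.59, edgeR adjusted p = 0.021 in INSL3-KO). Notch4, the endothelial receptor, was the weakest of the 4, at 17.6 to 27.6 CPM in WT, 21.9 to 28.5 in INSL3-KI and 12.9 to 15.9 in INSL3-KO, with no call against WT (log2 fold change 0.12 and -0.65, edgeR adjusted p = 0.60 and 0.015).

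The ligands did not move in 1 direction. Jag1, at chr2:137081456-137116644, measured 14.6, 20.3 and 27.7 CPM in WT, 60.3, 54.8 and 55.4 in INSL3-KI and 49.7, 47.0 and 47.3 in INSL3-KO. Every mutant library lay above every WT library. The log2 fold change was 1.48 in INSL3-KI (SE 0.21, edgeR adjusted p = 5.8e-04) and 1.20 in INSL3-KO (SE 0.21, edgeR adjusted p = 0.0019). In INSL3-KO the call was lost without WT replicate 1, where the value was 1.00, just under the fold threshold, and without WT replicate 2, where it was 1.18 (edgeR adjusted p = 0.011).

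Jag2, the second Jagged ligand, at chr12:112907819-112929776, parted the mutants. It measured 59.7, 59.6 and 61.0 CPM in WT, 60.2, 71.5 and 61.6 in INSL3-KI and 14.9, 14.8 and 13.4 in INSL3-KO. The log2 fold change was -2.07 in INSL3-KO (SE 0.076, edgeR adjusted p = 1.8e-06) and 0.14 in INSL3-KI (SE 0.10, edgeR adjusted p = 0.27), and the direct difference between INSL3-KI and INSL3-KO was 2.17 (SE 0.092, edgeR adjusted p = 6.1e-06). For Jag2 the deposited counts and FPKM values imply a median transcript length of 5258 bases in the table of WT and INSL3-KI gubernaculum and 4277 bases in that of INSL3-KO, and for Notch4 the medians were 6736 and 4462 bases, with a range of 1807 to 6661 over the libraries of the second table. What set these differences was not tested.

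Dll1, the Delta ligand that satellite cells and other progenitors depend on, fell in both mutants. It lies at chr17:15367354-15376872 and measured 33.5, 32.8 and 30.7 CPM in WT, 13.8, 15.5 and 10.1 in INSL3-KI and 17.03, 14.4 and 15.5 in INSL3-KO. No mutant library reached the lowest WT library, and the log2 fold changes were -1.25 in INSL3-KI (SE 0.17, edgeR adjusted p = 4.5e-04) and -1.05 in INSL3-KO (SE 0.094, edgeR adjusted p = 6.5e-05). Both calls turned on the fold threshold, since with library size in place of TMM the values were -0.94 and -0.88, and without INSL3-KO replicate 2 the latter was -0.99. Dll4, the Delta ligand of sprouting vessels, measured 10.4 to 13.6 CPM in WT, 15.2 to 16.9 in INSL3-KI and 8.65 to 12.4 in INSL3-KO, with no call (log2 fold change 0.45 and -0.15, edgeR adjusted p = 0.034 and 0.48).

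Neither target was lower in INSL3-KO. Hes1, a repressor that many cell types switch on when Notch is active, measured 38.4, 35.9 and 28.1 CPM in WT, 59.1, 71.9 and 62.2 in INSL3-KI and 47.3, 45.1 and 45.6 in INSL3-KO, with no overlap between any of the 3 groups. Its log2 fold change was 0.96 in INSL3-KI (SE 0.14, edgeR adjusted p = 7.6e-04), short of the fold threshold that it passed with library size in place of TMM (1.27), and 0.43 in INSL3-KO (SE 0.12, edgeR adjusted p = 0.014). Hey1, a related repressor prominent in the arterial wall, measured 20.4, 17.5 and 17.8 CPM in WT, 14.5, 9.91 and 15.2 in INSL3-KI and 26.2, 25.3 and 25.0 in INSL3-KO. INSL3-KI lay below WT and INSL3-KO above it, at log2 fold changes of -0.45 (edgeR adjusted p = 0.065) and 0.45 (edgeR adjusted p = 0.0036), neither of them called. The direct difference of Hey1 between INSL3-KI and INSL3-KO was -0.94 (SE 0.17, edgeR adjusted p = 0.0021), also under the fold threshold.

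**Figure D1:**
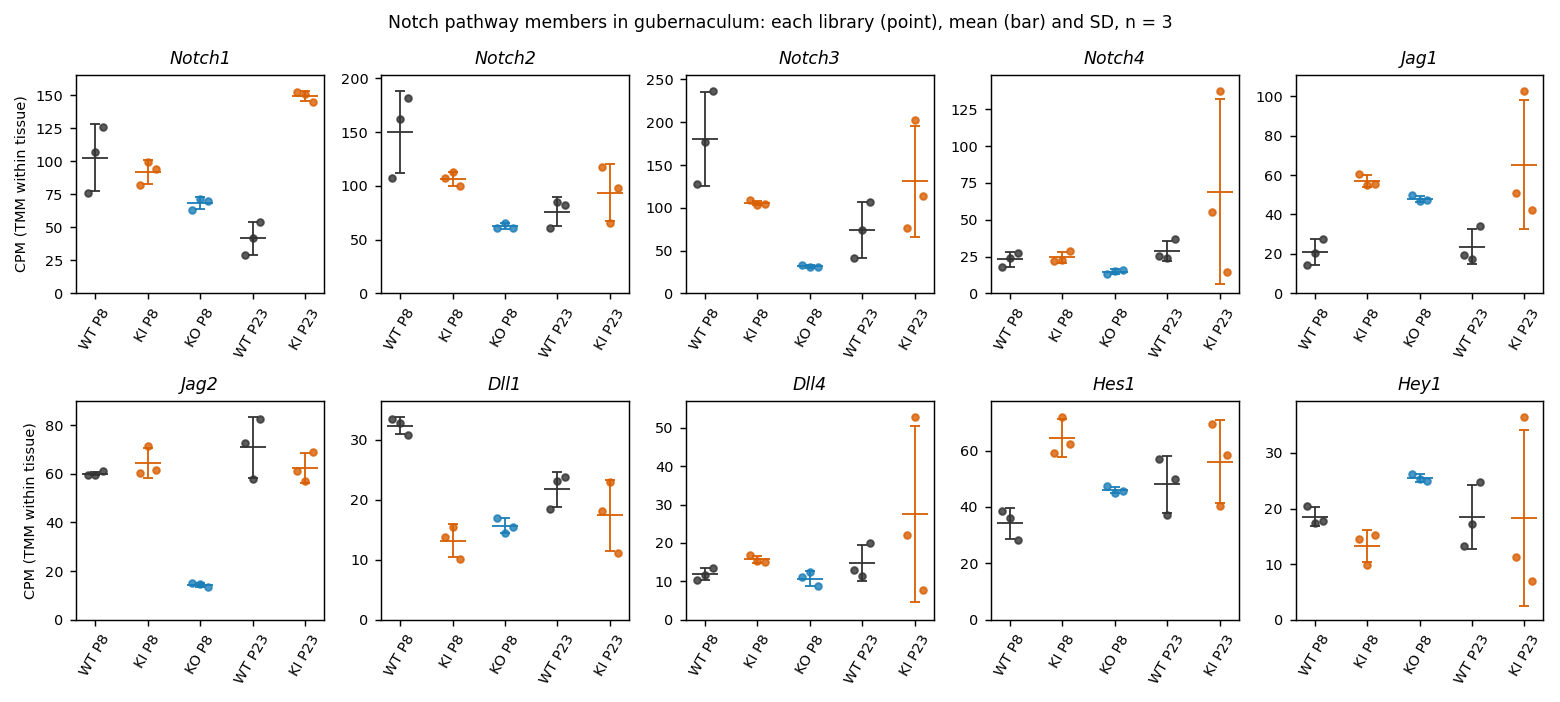
Level of each member in gubernaculum in CPM (linear axis from 0) for WT (black), INSL3-KI (orange) and INSL3-KO (blue) libraries, with points for single libraries and a bar for the mean with its SD (n = 3). In P8 INSL3-KO, Notch3 sits between 30.3 and 33.4 and Jag2 between 13.4 and 14.9, below all other P8 libraries, while Jag1 is above WT in both mutants, and in P23 INSL3-KI 1 library stands high for Notch4, Dll4 and Hey1.

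In the direct comparison of the mutants at P8, Notch3 and Jag2 were the 2 members called, both higher in INSL3-KI (11.9% of all genes tested were called higher in INSL3-KI), and no member was called lower (10.5% of all genes were). A further 6 members had libraries in INSL3-KI that all lay above those of INSL3-KO, namely Notch1, Notch2, Notch4, Jag1, Dll4 and Hes1, at log2 differences of 0.25 to 0.77 that did not reach the fold threshold (35.7% of all genes tested had every INSL3-KI library above every INSL3-KO library). The median of the 10 log2 fold changes was 0.53 with TMM, where that of all genes was -0.0070. This comparison also compares the tables, and several of the member differences changed sign under another fit given below.

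The marker genes of several cell types differed between the groups along with these values. The summed FPKM of 10 skeletal muscle markers ranged from 13947 to 14691 in WT P8 gubernaculum, from 538 to 971 in INSL3-KI, where the satellite cell gene Pax7 was at 0 in all 3 libraries, and from 3904 to 4156 in INSL3-KO. The sum of 10 mural and smooth muscle markers ranged from 571 to 735 in WT, from 7216 to 8435 in INSL3-KI and from 3195 to 3393 in INSL3-KO, that of 10 endothelial markers from 178 to 209, 296 to 361 and 304 to 325, that of 7 duct epithelium markers from 18.1 to 63.3, 782 to 912 and 330 to 356, and that of 5 adipocyte markers from 85.5 to 96.1, 719 to 960 and 1652 to 1891. Of these lists, 10 of 10 skeletal muscle markers were called lower in INSL3-KI and 9 of 10 in INSL3-KO, 5 and 4 of 10 mural markers were called higher, with 1 lower in INSL3-KO, and 7 of 7 duct epithelium markers and 5 of 5 adipocyte markers were called higher in each mutant. Of the endothelial markers, 2 and 3 of 10 were called higher. In bulk tissue, fewer cells of a type and less RNA per cell cannot be told apart, and the part of these cells in the member values was not tested. Sums across tables rest on FPKM that were scaled in each table separately.

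Members are GC-rich: the longest transcript of Jag2 holds 61.9% GC, of Notch4 61.2%, of Notch3 59.6% and of Notch1 57.1%, where the median over genes is 48.7% and the 90th percentile 57.6%, while Jag1 (48.8%) and Hes1 (50.7%) lie near the median. When each library's trend of log2 CPM with GC content and transcript length was removed, an alternative added after seeing the data, several INSL3-KO values changed sign or lost their call. In INSL3-KO against WT, Notch3 was then at -1.42 and Jag2 at -1.12, both still called, and Jag1 was called at 1.47. Notch2 moved to -0.38 and Dll1 to -0.69, neither called any longer, and the signs of Notch1, Notch4 and Dll4 changed to 0.45, 0.43 and 0.28. Hes1 moved to 0.030 (edgeR adjusted p = 0.79), while Hey1 stayed at 0.45. Fewer members thus lay below WT than with TMM, and the median of -0.62 is that of TMM only. In INSL3-KI against WT Jag1 was at 1.53, Dll1 at -1.28 and Notch3 at -0.72, beside 1.48, -1.25 and -0.73 with TMM, and Hes1 passed the fold threshold at 1.05. Between the mutants the Notch3 difference was 0.67, not called, and the Jag2 difference was 1.13, called. The other members whose INSL3-KI libraries all lay above INSL3-KO were then at 0.97 (Hes1), 0.084 (Dll4), 0.012 (Jag1), -0.017 (Notch2), -0.37 (Notch4) and -0.55 (Notch1). Dll1 was at -0.64 and Hey1 at -0.95, so the members in INSL3-KI no longer lay mostly above INSL3-KO.

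**Figure D2:**
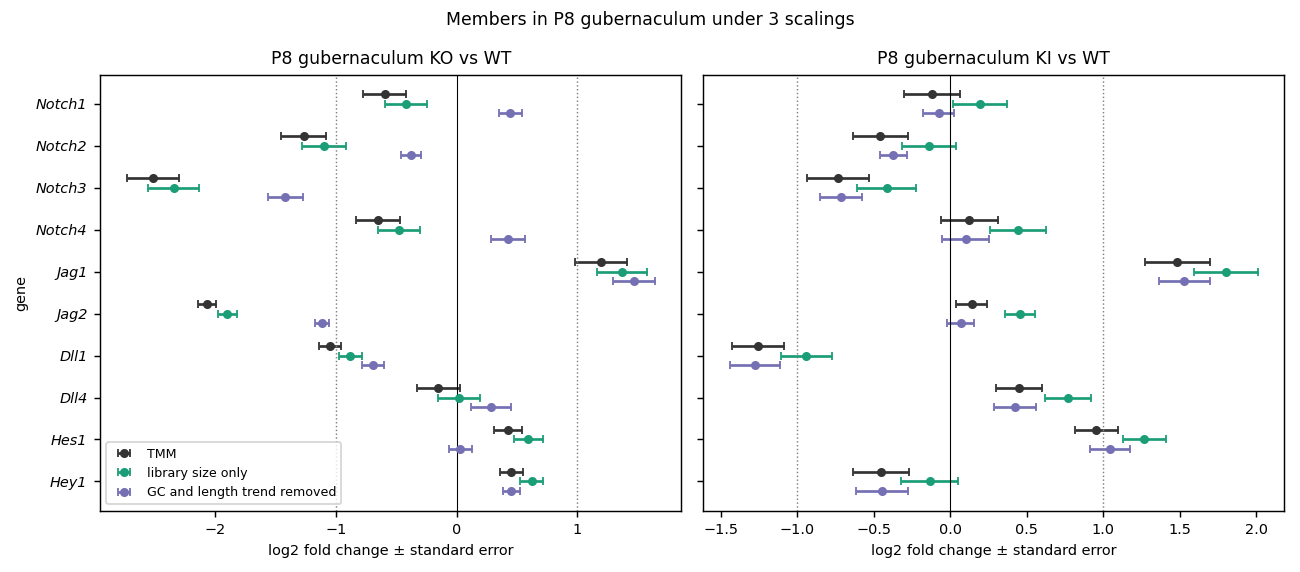
log2 fold change of each member against WT in P8 gubernaculum with its standard error, for INSL3-KO (left) and INSL3-KI (right), with TMM, with library size alone and with the GC and length trend of each library removed; dotted lines mark a fold change of 2. In INSL3-KO, Notch3 stays below -1 under all 3 scalings, from -2.52 to -1.42, while Notch1 and Notch4 lie on the other side of 0 once the trend is removed.

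The 250 bases before the RefSeq transcription start (GRCm38.p6) are shown for the 2 members with the lowest fold change against WT in INSL3-KO, Notch3 and Jag2, for the ligand that rose, Jag1, and for Hes5, a classical Notch target described with the wider pathway. Capitals mark the RBPJ core TGGGAA or its reverse complement TTCCCA, and the GC box GGGCGG or its reverse complement CCGCCC. Notch3 and Jag2 hold only GC boxes, Jag1 holds neither motif and Hes5 only RBPJ cores.
Notch3, chr17:32166891-32167140, minus strand: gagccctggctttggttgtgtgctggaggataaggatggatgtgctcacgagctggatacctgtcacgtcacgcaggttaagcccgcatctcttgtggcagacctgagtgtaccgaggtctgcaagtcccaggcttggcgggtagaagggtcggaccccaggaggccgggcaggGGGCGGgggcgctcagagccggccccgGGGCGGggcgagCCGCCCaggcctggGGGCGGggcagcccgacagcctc
Jag2, chr12:112929496-112929745, minus strand: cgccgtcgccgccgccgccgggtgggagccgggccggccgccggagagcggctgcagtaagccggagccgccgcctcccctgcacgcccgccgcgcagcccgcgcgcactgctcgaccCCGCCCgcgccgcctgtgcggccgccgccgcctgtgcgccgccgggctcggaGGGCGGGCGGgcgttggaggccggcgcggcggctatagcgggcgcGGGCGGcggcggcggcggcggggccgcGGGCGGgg
Jag1, chr2:137116521-137116770, minus strand: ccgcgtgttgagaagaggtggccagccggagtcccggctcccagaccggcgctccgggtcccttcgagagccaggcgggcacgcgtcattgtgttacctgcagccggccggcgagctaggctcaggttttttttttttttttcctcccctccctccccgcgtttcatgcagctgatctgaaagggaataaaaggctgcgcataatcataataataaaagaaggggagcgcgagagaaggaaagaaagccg
Hes5, chr4:154960673-154960922, plus strand: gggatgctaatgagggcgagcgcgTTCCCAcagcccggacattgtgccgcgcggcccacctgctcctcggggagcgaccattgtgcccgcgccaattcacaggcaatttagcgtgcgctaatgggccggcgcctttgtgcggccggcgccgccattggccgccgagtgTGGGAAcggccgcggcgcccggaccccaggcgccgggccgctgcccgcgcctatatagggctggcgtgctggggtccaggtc

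The table of promoters held 8 of the 10 members, with 9 starts. The other two are the target genes Hes1 and Hey1. None of these 9 windows holds the RBPJ core, which 21.6% of all 32851 windows of that length hold, and 5 hold a GC box, against 32.7% of all windows. The Jag2 window is 87.2% G and C, that of Notch3 68.8% and that of Jag1 57.2%, beside a median of 52.4% over all windows. In Hes5 the 2 RBPJ cores begin 226 and 82 bases before the start and lie on opposite strands. A match is a run of letters, and its absence says only that these letters are not in the window shown.

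At P23 the gubernaculum of INSL3-KI was compared with WT within 1 table, and no member was called (2.57% of all genes tested were called by edgeR; 2 members had an unadjusted p under 0.05, as did 33.6% of all genes). Notch1 came closest. It measured 29.1, 41.6 and 54.4 CPM in WT and 153, 151 and 145 in INSL3-KI (log2 fold change 1.85, SE 0.245, edgeR adjusted p = 0.010, just above the threshold before rounding), and DESeq2 called it (1.82, DESeq2 adjusted p = 5.3e-09). All 3 INSL3-KI libraries lay close together and far above WT. Jag1 measured 19.6, 17.4 and 34.0 CPM in WT and 50.8, 103 and 42.5 in INSL3-KI (log2 fold change 1.46, SE 0.42, edgeR adjusted p = 0.072).

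Replicate 2 of INSL3-KI P23 gubernaculum stood above replicates 1 and 3 in Notch4, Dll4, Hey1 and Notch3. It measured 138 CPM of Notch4 against 55.0 and 14.2 in replicates 1 and 3, 52.8 of Dll4 against 22.2 and 7.71, 36.5 of Hey1 against 11.3 and 7.05, and 203 of Notch3 against 76.8 and 113. The endothelial marker sum was 1023 FPKM in that library and 324 and 155 in the others, the adipocyte sum was 11255 against 5073 and 447, and the duct epithelium sum 4.31 against 736 and 1162. Skeletal muscle markers summed to 597, 8.37 and 452 in the INSL3-KI libraries, with Myod1, Myog and Pax7 at 0 in all 3, and to 26073 to 37821 in WT. The part of these cells and of this library in the values was not tested. The standard errors of Notch4, Dll4 and Hey1 at P23 were 0.63 to 0.75 on the log2 scale, and their differences from WT of 1.26, 0.89 and -0.019 were not detectable at that spread. The interaction of genotype and age in gubernaculum was largest for Notch1, whose INSL3-KI effect was 1.94 higher at P23 than at P8 (SE 0.33, edgeR adjusted p = 0.013), and no member was called by edgeR (0.281% of all genes were), with 4 members at an unadjusted p under 0.05 (25.6% of all genes) and Notch1 called by DESeq2. Without INSL3-KI P23 replicate 2 the Notch1 interaction was 1.99 and called (edgeR adjusted p = 0.0094), and without replicate 3 it was 1.96 (edgeR adjusted p = 0.0097).

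In P8 testis, INSL3-KO again held less Notch2 and Notch3 than WT. Of 10 members, 2 were called lower in INSL3-KO (8.37% of all genes tested) and 1 higher (5.44%), while in INSL3-KI 1 was called higher (3.03%) and none lower (511 of 15702 genes were). Notch3 measured 51.3, 58.5 and 82.8 CPM in WT, 24.9, 18.0 and 33.5 in INSL3-KI and 9.53, 11.2 and 10.4 in INSL3-KO, 3 ranges that did not overlap. The log2 fold change was -2.60 in INSL3-KO (SE 0.19, edgeR adjusted p = 5.4e-05) and -1.26 in INSL3-KI (SE 0.28, edgeR adjusted p = 0.017, not called). Notch2, at 238 CPM in the median WT library, measured 92.5, 91.2 and 92.3 in INSL3-KO, a log2 fold change of -1.37 (SE 0.074, edgeR adjusted p = 2.2e-05), and 160, 112 and 143 in INSL3-KI (log2 fold change -0.73, edgeR adjusted p = 0.015). With the GC and length trend removed, Notch3 in INSL3-KO was at -1.81 and called, Notch2 was at -0.80 and not called, and Jag2 was called higher at 1.05.

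Jag2 was not called in INSL3-KO testis at this age (log2 fold change 0.30, edgeR adjusted p = 0.29). Its values were 40.5, 21.6 and 24.5 CPM in WT, 74.4, 67.0 and 73.3 in INSL3-KI and 36.2, 34.1 and 34.6 in INSL3-KO. INSL3-KI lay above both other groups, with a log2 fold change of 1.37 against WT (SE 0.24, edgeR adjusted p = 0.0088), a call that was lost when any library except WT replicate 1 was left out (edgeR adjusted p = 0.012 to 0.040). Hey1 was higher in INSL3-KO, at 17.6, 17.1 and 17.7 CPM against 10.4, 6.70 and 6.66 in WT (log2 fold change 1.17, SE 0.19, edgeR adjusted p = 0.0016). Between the mutants, Notch3 and Jag2 were the 2 members called, both higher in INSL3-KI (2.76% of all genes tested were called higher), at 1.32 and 1.05, and both calls were lost with the GC and length trend removed (0.65 and 0.51). Of these 2, Notch3 was no longer called without INSL3-KI replicate 1 or without any 1 of the INSL3-KO libraries (edgeR adjusted p = 0.024 to 0.040). The spermatocyte marker sum was 19.2 to 45.5 FPKM in WT P8 testis, 230 to 655 in INSL3-KI and 315 to 322 in INSL3-KO, and the fibroblast sum 1551 to 4504, 764 to 1276 and 1265 to 1307, and their part in these values was not tested. The spermatocyte sum of 655 was that of INSL3-KI replicate 2, without which Notch3 and Jag2 were still called between the mutants.

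At P23 and P40 Notch1 and Notch2 stood higher and Jag1 lower in mutant than in WT testis. In INSL3-KO against WT at P23, compared within 1 table, 4 members were called higher (31.1% of all genes tested) and 3 lower (33.4%). In INSL3-KI against WT, 4 were called higher (8.81%) and 1 lower (11.8%) at P23, and 3 higher (25.6%) and 2 lower (22.1%) at P40. Germ cell marker levels differed between the groups at these ages: the summed FPKM of 6 spermatid markers was 11443 to 13780 in WT at P23, 63.8 to 654 in INSL3-KI and 2.68 to 4.94 in INSL3-KO, and at P40 it was 8502 to 9629 in WT and 8.55 to 80.1 in INSL3-KI. The sum of 5 spermatocyte markers at P23 was 438 to 474 in WT, 457 to 539 in INSL3-KI and 72.2 to 76.8 in INSL3-KO, and at P40 it was 322 to 387 in WT and 102 to 430 in INSL3-KI. The Sertoli marker sum was higher in both mutants, from 76.5 to 79.4 in WT at P23 to 165 to 446 in INSL3-KI and 715 to 748 in INSL3-KO. So were the sums of the spermatogonia markers, a further germ cell list, and of the fibroblast, mural and macrophage markers. The Leydig sum was higher only in INSL3-KO and the duct epithelium sum in neither mutant. In the same order, the fibroblast sum was 74.7 to 80.7, 297 to 535 and 810 to 827. The mural sum was 56.1 to 56.8, 113 to 202 and 310 to 329. The macrophage sum was 27.4 to 30.2, 51.8 to 112 and 267 to 300. The spermatogonia sum was 28.2 to 28.5, 56.6 to 84.6 and 105 to 108, and at P40 it was 26.1 to 33.4 in WT and 82.6 to 111 in INSL3-KI. The part of the cell mixture in the member values was not tested. In INSL3-KI replicate 3 at P23 the spermatid sum was 63.8, against 509 and 654 in replicates 1 and 2, and the Sertoli sum 446 against 216 and 165. Without that library the same 5 members were called against WT (Notch1 at 2.52, Notch2 at 1.37, Notch3 at 1.95, Jag1 at -2.18 and Jag2 at 1.46), and Dll1 joined Notch3 and Jag2 between the mutants. In INSL3-KI replicate 1 at P40 the spermatid sum was 80.1, against 8.55 and 9.32 in replicates 2 and 3, and without it the same 5 members and Dll4 were called.

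Notch1 measured 8.50, 9.34 and 10.5 CPM in WT testis at P23, 53.4, 54.5 and 94.7 in INSL3-KI and 61.0, 62.7 and 55.2 in INSL3-KO. Both mutants lay well above WT, at log2 fold changes of 2.86 (SE 0.27, edgeR adjusted p = 9.2e-04) and 2.72 (SE 0.096, edgeR adjusted p = 1.2e-09). At P40 it measured 15.3, 11.8 and 19.3 in WT and 70.0, 116 and 110 in INSL3-KI (log2 fold change 2.73 with an SE of 0.30, edgeR adjusted p = 5.2e-04). Notch2 rose as well, by 1.70 in INSL3-KI and 1.78 in INSL3-KO at P23 and by 1.85 in INSL3-KI at P40 (edgeR adjusted p = 0.0035, 1.7e-08 and 4.4e-04).

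Notch3, at 1.75 to 3.14 CPM in WT P23 testis, measured 10.2, 10.4 and 13.7 in INSL3-KI (log2 fold change 2.12, edgeR adjusted p = 0.0029) and 4.51, 4.28 and 4.91 in INSL3-KO (log2 fold change 0.84, edgeR adjusted p = 0.0090, under the fold threshold). At P40 its log2 fold change in INSL3-KI was 1.14 (SE 0.18, edgeR adjusted p = 0.0018), a call lost without WT replicate 1 (1.12, edgeR adjusted p = 0.010) or INSL3-KI replicate 3 (0.98), and with the GC and length trend removed (0.94), where Hes1 was called instead (1.04). Notch4 went the other way, from 13.1, 13.9 and 14.9 CPM in WT at P23 to 6.54, 5.34 and 4.11 in INSL3-KO (log2 fold change -1.33, edgeR adjusted p = 4.6e-05), and was lower without a call in INSL3-KI (-0.75 at P23 and -0.76 at P40). With library size alone in place of TMM, Notch4 in INSL3-KO was at -0.69 and not called.

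Jag1 was lower in both mutants. It measured 45.3, 45.7 and 45.9 CPM in WT testis at P23, 9.38, 10.7 and 11.2 in INSL3-KI and 10.5, 12.3 and 10.3 in INSL3-KO, and at P40 41.0, 48.1 and 42.6 in WT and 11.6, 14.5 and 12.2 in INSL3-KI. All mutant libraries lay below all WT libraries of their age, with log2 fold changes of -2.11 and -1.99 at P23 (edgeR adjusted p = 3.0e-04 and 8.2e-09) and -1.73 at P40 (edgeR adjusted p = 3.1e-04). Jag2 was called higher in INSL3-KI at P23, at 38.0, 45.4 and 28.7 CPM against 13.8, 15.5 and 16.3 in WT (log2 fold change 1.31, edgeR adjusted p = 0.0033), and measured 8.38, 7.18 and 7.35 in INSL3-KO (log2 fold change -0.93, edgeR adjusted p = 5.0e-05, under the fold threshold). At P40 it was at 27.0, 22.2 and 25.1 in INSL3-KI and 32.4, 29.1 and 33.4 in WT (log2 fold change -0.30, edgeR adjusted p = 0.054).

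Of the remaining ligands and targets in P23 testis, INSL3-KO had Dll1 called higher (1.55), though at a mean of 2.54 CPM against 0.901 in WT, Hes1 called higher (1.21) and Hey1 called lower (-1.35). Hes1 measured 9.31, 9.17 and 10.5 CPM in WT, 14.2, 11.8 and 18.1 in INSL3-KI and 21.6, 22.0 and 20.4 in INSL3-KO. The INSL3-KI difference was 0.63 (edgeR adjusted p = 0.042), not called. Hey1 was also called lower in INSL3-KI at P40, at 6.18, 5.81 and 5.04 CPM against 12.4, 17.5 and 12.5 in WT (log2 fold change -1.27, SE 0.18, edgeR adjusted p = 0.0013). With library size in place of TMM neither Hey1 difference was called (-0.71 in INSL3-KO at P23 and -0.65 in INSL3-KI at P40). Between the mutants at P23, Notch3 (1.32) and Jag2 (2.29) were the 2 members called, both higher in INSL3-KI (25.2% of all genes tested were called higher), and without any 1 of the INSL3-KO libraries Jag2 alone was called. In INSL3-KI against WT at P23 the count of members called fell from 5 to 1 without WT replicate 1 and without WT replicate 2, which left Jag1, and to 2 without WT replicate 3 or INSL3-KI replicate 1, which left Jag1 and Notch1. With the GC and length trend removed, Notch2 (1.02), Notch3 (1.27) and Jag2 (0.58) were not called there and Notch4 was called lower, and Notch3 was not called between the mutants (0.58).

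**Figure D3:**
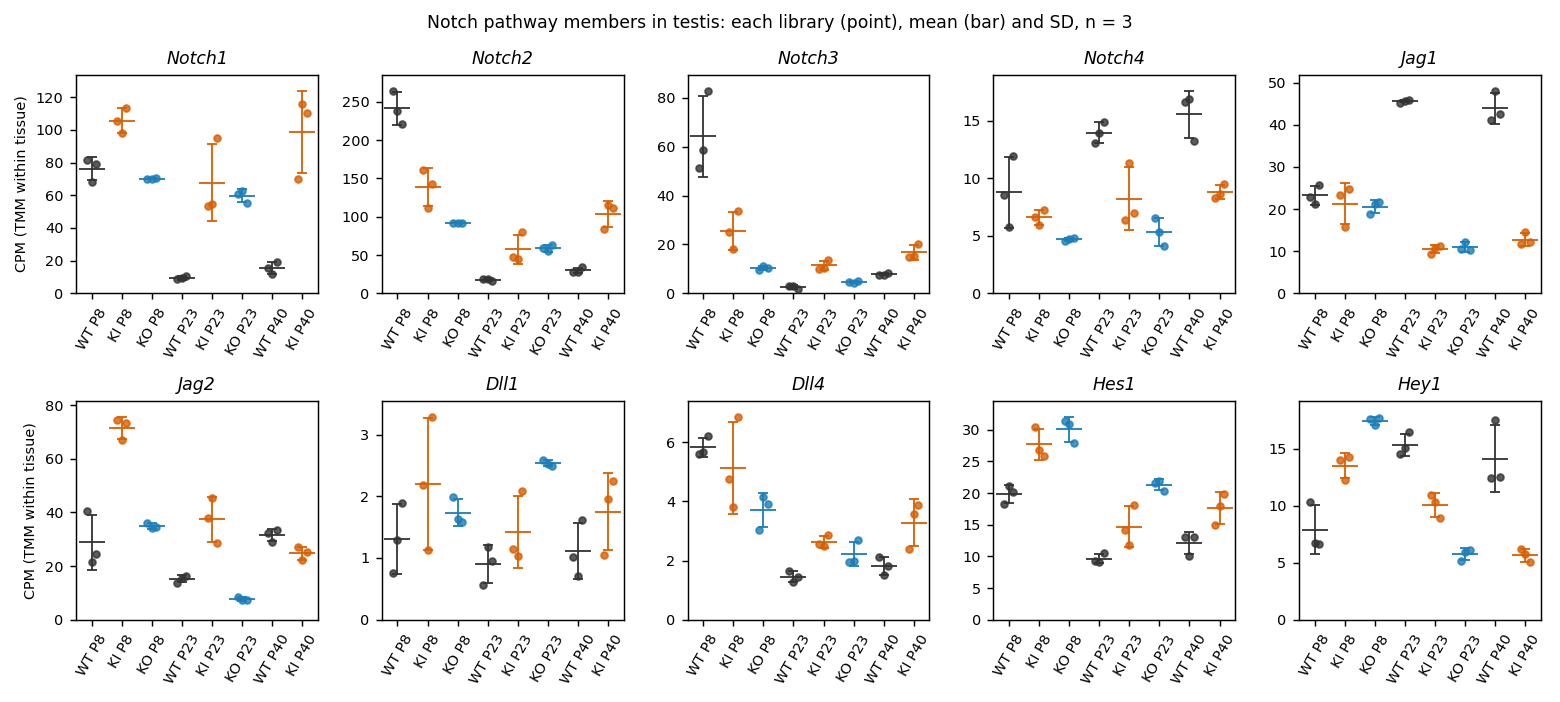
Level of each member in testis in CPM (linear axis from 0) by genotype and age, with points for single libraries and a bar for the mean with its SD (n = 3). In WT, Notch1, Notch2 and Notch3 are far lower at P23 and P40 than at P8, while Jag1 is higher, and the mutants at P23 and P40 lie above WT for Notch1 and Notch2 and below WT for Jag1. WT P23 testis is held in another table than WT testis at P8 and P40, so age and table cannot be told apart there. The WT difference between P8 and P23 was not tested.

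Within WT testis, from P8 to P40, 4 of 10 members were called lower (27.8% of all genes tested) and none higher (5388 of 16892 genes were). The receptors Notch1 (-2.35), Notch2 (-3.06) and Notch3 (-3.07 on the log2 scale) and the ligand Dll4 (-1.74) fell, with edgeR adjusted p-values of 1.2e-05, 3.0e-07, 3.4e-06 and 3.1e-04. Jag1 went from 22.8, 21.1 and 25.7 CPM at P8 to 41.0, 48.1 and 42.6 at P40, a log2 fold change of 0.86 (edgeR adjusted p = 1.9e-04) that was under the fold threshold. With the GC and length trend removed 7 members were called, since Jag1 (1.07), Notch4 (1.40) and Hes1 (-1.32) passed as well. In WT gubernaculum from P8 to P23, Notch1 alone was called, lower by a log2 fold change of -1.30 (SE 0.27, edgeR adjusted p = 0.0095; 4.34% of all genes tested were called lower), a call that was lost when any library but WT P23 replicate 3 was left out.

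Between the tissues of WT at P8, 6 of 10 members were called higher in gubernaculum (14.1% of all genes tested) and none lower (2230 of 15624 genes were). Dll1 differed most, at 7.37 to 8.33 FPKM in gubernaculum and 0.233 to 0.587 in testis (log2 fold change 4.72, SE 0.32, edgeR adjusted p = 2.3e-05). Notch3, Notch4, Jag2, Dll4 and Hey1 were higher by 1.59, 1.49, 1.16, 1.13 and 1.33 on the log2 scale. Without WT P8 testis replicate 2 only Dll1, Dll4 and Hey1 of these 6 were called, and with library size alone only Dll1 and Notch3, together with Notch2, which was called lower. On the FPKM scale, which allows genes to be compared, Hes1 (19.97 ± 3.29, SD, n = 3) and Notch3 (19.2 ± 5.7) were the highest members in WT P8 gubernaculum and did not differ beyond their spread, followed by Notch2 (12.3 ± 3.1), Jag2, Notch1 and Dll1, each overlapping the next, with Jag1, Notch4 and Dll4 lowest and also overlapping. In INSL3-KO P8 gubernaculum the order was Hes1 (30.3 ± 0.83), Hey1 (10.1 ± 0.21), Jag1, Notch1, Notch2, Dll1, Notch3 (3.77 ± 0.19) and Jag2, with no overlap between neighbours up to Jag2. WT P8 testis was led by Notch2 (25.2 ± 2.7), which did not overlap Hes1 (14.8 ± 0.83).

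**Figure D4:**
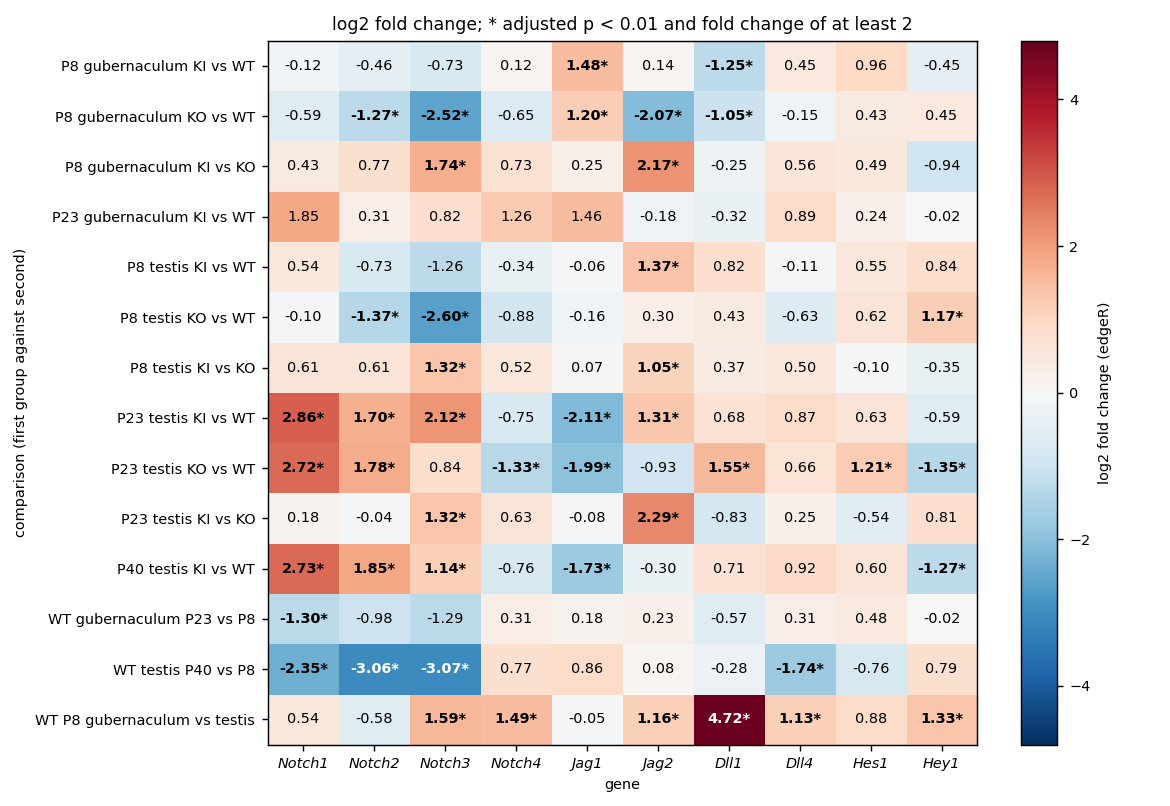
log2 fold change of each member in each of the 14 comparisons of groups (red higher and blue lower in the first group named, edgeR with TMM), with an asterisk where the adjusted p was under 0.01 and the fold change at least 2. Comparisons with the same reference share its libraries. Notch3 and Jag2 are the members called in all 3 comparisons of INSL3-KI with INSL3-KO, each of which also compares the tables. With the GC and length trend removed, Notch3 was called in none of the 3, and Jag2 in P8 gubernaculum and P23 testis only.

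The wider pathway was described with a list of 56 further genes. In P8 gubernaculum of INSL3-KI, 53 were tested, of which 11 were called higher (beside 14.4% of all genes) and 5 lower (9.70%), and the median log2 fold change was 0.099. In INSL3-KO, 5 of 53 were called higher (15.5% of all genes) and 12 lower (15.2%), and the median was -0.19. Between INSL3-KI and INSL3-KO, 8 of 52 were called higher (11.9% of all genes) and 3 lower (10.5% of all genes tested were called lower), with a median of 0.32. At P23, 1 of 52 was called lower in INSL3-KI (2.35% of all genes) and none higher (32 of 15082 genes were).

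Among the noncanonical ligands, Dlk1, a Delta-like protein that lacks the receptor-activating domain, measured 5506, 3984 and 4381 CPM in WT, 235, 186 and 205 in INSL3-KI and 681, 728 and 672 in INSL3-KO. It had the largest fall of the list, with log2 fold changes of -4.43 and -2.74 (edgeR adjusted p = 1.1e-06 and 3.5e-06). Dner, a neural Delta-like protein, went from 0.853, 0.931 and 0.917 CPM in WT to 27.7, 23.5 and 32.0 in INSL3-KI and 18.9, 18.6 and 21.8 in INSL3-KO (log2 fold changes 4.98 and 4.45). The adhesion molecule Cntn1 was called higher in both mutants (1.64 and 1.14), Mfap5 lower in INSL3-KI (-1.30) and Dlk2 lower in INSL3-KO (-1.99).

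Of the 15 genes of the nuclear complex and its corepressors, the coactivators Maml2 (1.05) and Maml3 (1.03) were called higher in INSL3-KI and none lower, while in INSL3-KO none was called higher and the genes called lower included the corepressor Spen (-1.45) and Snw1 (-1.40), a protein of the RBPJ complex. None of the 9 protease genes was called in INSL3-KO, and of these Aph1c, a gamma-secretase subunit, was called higher in INSL3-KI (1.70). The Fringe enzymes, which glycosylate receptors and set their preference for Delta or Jagged ligands, divided: Mfng was higher in both mutants (1.35 and 1.24), Rfng higher in INSL3-KI (1.29) and Lfng lower in INSL3-KO (-1.21), where Pofut1, which adds the fucose that Fringe extends, was lower too (-1.08).

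Among the ubiquitin and endocytic regulators, Dtx1, a Deltex protein that binds Notch, measured 2.27, 3.66 and 2.06 CPM in WT, 44.4, 54.8 and 43.7 in INSL3-KI and 11.8, 12.6 and 11.3 in INSL3-KO (log2 fold changes 4.20 and 2.15). Neurl1b was called higher in both mutants (1.66 and 1.14) and its paralog Neurl1a lower (-2.14 and -2.29), both of them Neuralized-type ubiquitin ligases of ligand endocytosis. Dtx3l was called higher (1.33) and Fbxw7, which marks the intracellular domain for degradation, lower (-1.29) in INSL3-KI, and Numbl (-1.71), Mib2 (-1.55) and Dtx4 (-1.02) were called lower in INSL3-KO. Fbxw7 was also the gene called at P23 (-1.24, edgeR adjusted p = 0.0066).

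Of the other targets, Hes5 had 3, 1 and 0 counts in WT P8 gubernaculum, 53, 234 and 40 in INSL3-KI and 6, 5 and 0 in INSL3-KO, and was called higher in INSL3-KI against both (edgeR adjusted p = 0.0020 and 0.0050); it was not tested between INSL3-KO and WT, where its counts were too low. Hes6, which is expressed in differentiating muscle, was called lower in both mutants (-1.71 and -1.75). Removing the GC and length trend left 10 of the list called in INSL3-KO, with Spen, Numbl, Mib2, Dtx4, Lfng, Pofut1 and Cntn1 among those no longer called and Crebbp called higher (1.13), and left all 16 called in INSL3-KI.

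**Figure D5:**
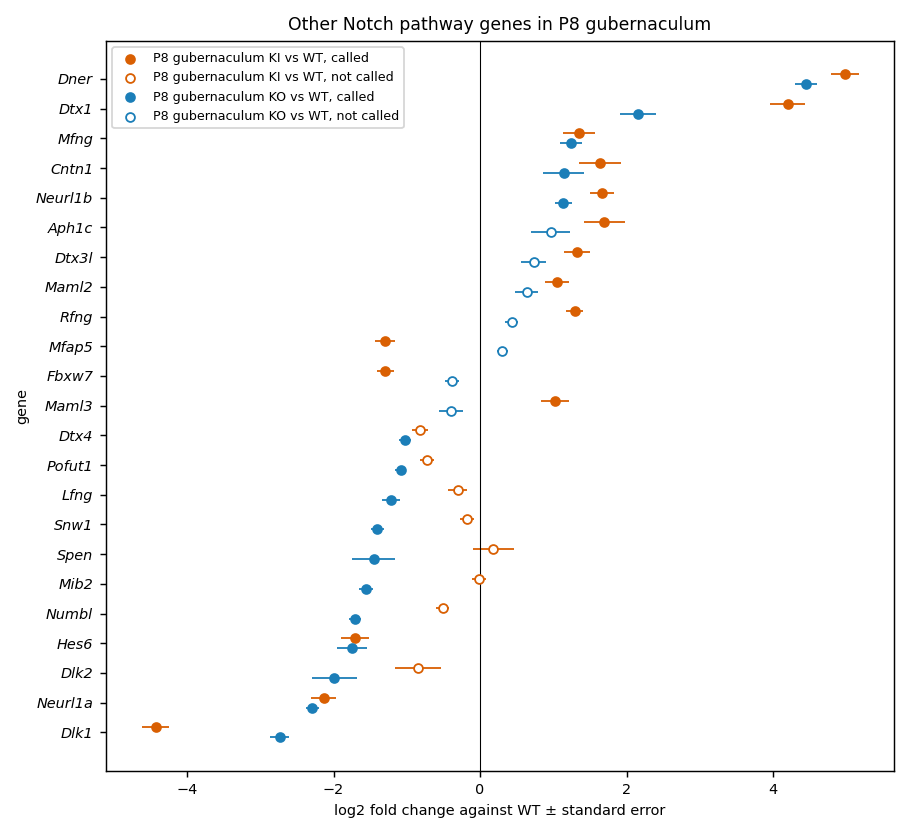
log2 fold change against WT with its standard error for genes of the wider list called in either mutant in P8 gubernaculum, as named in the text and without Hes5, ordered by the INSL3-KO value; filled points passed the thresholds and open points did not. Dner and Dtx1 are the highest and Dlk1 the lowest in both mutants, while Numbl, Mib2, Spen and Snw1 are filled for INSL3-KO only.

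The gene outside the pathway with the most similar profile was found for each member by Pearson correlation of log2 CPM across libraries, as a description, since libraries share genotype, age, table and base composition. Over the 15 gubernaculum libraries Notch4 and Dll4 were both nearest to Tie1, an endothelial receptor (r = 0.968 and 0.976), and Hey1 to the blood cell gene Gypc (0.947). Notch3 was nearest to Bcar1 (0.940), Jag2 to Med25 (0.989), Jag1 to Angpt1, a vessel-stabilising ligand (0.957), Notch1 to Ylpm1 (0.966), Notch2 to Dchs2 (0.974), Dll1 to Mars2 (0.955) and Hes1 to Actr3b (0.922). Over the 24 testis libraries Notch3 was nearest to Hspg2, the basement membrane protein perlecan (0.982), Notch2 to Tcf3 (0.993), Notch1 to Colgalt1 (0.988), Notch4 to Itga1 (0.933), Jag1 to Prkar2a (0.959), Jag2 to Ticrr (0.942), Dll4 to Sh3pxd2a (0.957), Hes1 to Prmt9 (0.957) and Hey1 to Rps6ka6 (0.929), and Dll1, at a mean of 1.62 CPM, to Zfp418 (0.852). Within the members, Notch4 and Dll4 had the highest correlation in gubernaculum (0.934) and Notch2 and Dll4 in testis (0.934).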

How the data were processed

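RNA from gubernaculum and testis was sequenced as paired-end libraries, with 3 biological replicates in each of 13 groups (39 libraries, 29861447 to 45260372 counts each). The authors deposited raw read counts and FPKM values (counts scaled by transcript length and library size) per Ensembl gene in 2 tables, with 27 and 12 libraries. The submitters' processing notes name HISAT2 and GRCm38. The counting program and its strand setting are not given in the sources used here. The tables list 22036 and 43339 Ensembl genes and were joined on the 21561 in both, which hold 94.2% to 97.9% of the counts of a library. FPKM values were used for levels between genes and for marker sums. The total counts of the libraries all differed, so none was an exact copy of another.

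Counts were tested with edgeR 4.0.16 in R 4.3.3 (quasi-likelihood test, TMM scaling, filterByExpr with min.count 10 and min.total.count 15), over the 2 groups compared. Calls needed a Benjamini-Hochberg adjusted p under 0.01, over all genes tested, together with a 2-fold difference, as the study set them. All 10 members passed the filter in every comparison. The interaction of genotype and age was fitted over 4 groups. CPM values use TMM factors within a tissue. On data simulated for INSL3-KO against WT in P8 gubernaculum with 15609 genes, 155 of 200 genes changed 4-fold were recovered (77.5%), with 6 false calls. Alternatives were DESeq2 1.42.0, library size without TMM, no filter, the replicate number as a block, limma 3.58.1 on log2(FPKM + 1) and log2(FPKM + 0.1) for genes with a mean FPKM of at least 0.5, 1 fit over all groups of a tissue, each library left out in turn and, chosen after seeing the data, a fit in which GC content and transcript length were regressed out of every library. Replicate numbers were checked for pairing by correlating deviations from the group means: in no comparison were all 3 correlations over 0.1.

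The members and gene lists were chosen with earlier results of these data known. Named in the text were the 10 members, Insl3 and Rxfp2, genes of a wider list of 56 called in P8 gubernaculum, the gene outside the pathway most correlated with each member (mean CPM of at least 1) and marker genes beside the results they move with. Crebbp was named after its value was seen. Gene positions and transcript GC content are from GENCODE M21 (GRCm38), and promoter sequences from RefSeq (GRCm38.p6). Not every called gene of the wider list is reported here by name.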

Additional observations from a re-analysis of the deposited data

Results flagged for a closer look

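Several members had effects of opposite sign at 2 ages or in 2 tissues, with every mutant library on one side of WT in the first setting and on the other side in the second. These differences are given as the later minus the earlier log2 fold change, and none of them was tested. Of 70 combinations of a member with a pair of settings, 13 showed it. Over all genes the share was 3.07% to 32.7%, depending on the pair of settings, as given below. In testis of INSL3-KI, the Notch2 effect was -0.73 at P8, 1.70 at P23 (a difference of 2.43) and 1.85 at P40 (2.59), and in INSL3-KO it went from -1.37 at P8 to 1.78 at P23 (3.15). The Notch3 effect in INSL3-KI testis was -1.26 at P8, 2.12 at P23 (a difference of 3.38) and 1.14 at P40 (2.41), and in INSL3-KO it went from -2.60 to 0.84 (3.44).

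Jag2 was higher in INSL3-KI testis at P8 (1.37) and P23 (1.31) and lower at P40 (-0.30), differences of -1.68 and -1.61. Dll4 in INSL3-KO testis went from -0.63 at P8 to 0.66 at P23 (1.29). Hey1 in INSL3-KI testis went from 0.84 at P8 to -0.59 at P23 (-1.43) and -1.27 at P40 (-2.11), and in INSL3-KO testis from 1.17 to -1.35 (-2.52). At P8 the Hey1 effect of INSL3-KI was also 1.29 higher in testis than in gubernaculum (0.84 against -0.45). Comparisons at the same age and tissue share their WT libraries, the P8 INSL3-KO and the P23 INSL3-KI comparisons of testis each span 2 tables, and the spermatid marker sum differed between WT and mutant testis at P23 and P40 but was at most 14.5 FPKM in any P8 testis library.

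Over all genes tested in both settings, such opposite sides were found for 21.8% between P8 and P23 and 30.1% between P8 and P40 in INSL3-KI testis, where 3 and 4 of the 10 members showed them, and for 3.07% between P23 and P40 (1 member). Between P8 and P23 in INSL3-KO testis the share was 32.7% (4 members). At P8 between gubernaculum and testis it was 14.7% in INSL3-KI (1 member) and 11.5% in INSL3-KO (0 members), and between P8 and P23 gubernaculum 3.46% in INSL3-KI (0 members). With 10 members these counts do not set the members apart from all genes, and no difference from the shares was tested.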

How the results depend on the processing

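In 6 of the comparisons genotype and table cannot be told apart, and with 3 libraries a group changes near 2-fold can fall on either side of the threshold. With library size in place of TMM the median over all genes moved by 0.315 and 0.168 on the log2 scale for INSL3-KI and INSL3-KO in P8 gubernaculum, and by -0.675 (WT testis from P8 to P40) to 0.638 (INSL3-KO in P23 testis) over all comparisons, so the direction of small effects depends on the scaling. The cause of the changes below was not tested.

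The number of members called depended on the setting as follows. In P8 gubernaculum, INSL3-KO against WT had 5 calls, and 3 with limma on log2(FPKM + 1) or with the GC and length trend removed. The 2 calls between the mutants became 1 with that trend removed. In P23 gubernaculum the count of 0 became 1 with DESeq2 and with limma at either pseudocount, and 2 with 1 fit over all groups. The interaction had 0, and 1 with DESeq2, with the trend removed and with 1 fit. In P8 testis, INSL3-KI against WT had 1, and 2 with DESeq2 or 1 fit, while the mutants differed in 2, and in 0 with limma at either pseudocount or the trend removed. In P23 testis, the 5 calls of INSL3-KI became 3 with the trend removed, and the 2 between the mutants became 1 with limma at either pseudocount or the trend removed. At P40 the 5 calls became 3 with limma on log2(FPKM + 1). In WT gubernaculum the 1 change with age became 2 with DESeq2 and 0 with library size, limma at either pseudocount or the trend removed. In WT testis 4 became 7 with the trend removed. Between WT tissues 6 became 3 with library size and with limma at either pseudocount. Apart from the replicate block and the omission of single libraries, given below, no other setting moved a count of members by over 1.5 times, and leaving out the filter on low counts changed no call.

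The wider list in P8 gubernaculum had 16, 17 and 11 calls for INSL3-KI, INSL3-KO and their difference, which were 10, 11 and 7 with 1 fit over all groups, and 10 and 5 for the latter 2 with the trend removed. At P23 its 1 call became 5 with DESeq2, 6 with 1 fit and 0 with library size, the replicate block and limma at either pseudocount.

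Replicate numbers did not pair the samples by the check used. With the replicate block, the members called numbered 0 for INSL3-KI in P8 testis, 1 between the mutants there, 2 for INSL3-KI in P23 testis and 2 in WT gubernaculum with age, and no other count of members moved by over 1.5 times.

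Without 1 library at a time, the lowest and highest numbers of members called were 2 and 3 (INSL3-KI), 4 and 5 (INSL3-KO) and 2 and 3 (between them) in P8 gubernaculum, 0 and 0 at P23, and 0 and 1 for the interaction. In P8 testis they were 0 and 1, 3 and 4, and 1 and 2, in P23 testis 1 and 6, 7 and 8, and 1 and 3, and at P40 4 and 6. In WT they were 0 and 1 for gubernaculum with age, 4 and 5 for testis with age and 3 and 5 between tissues. The wider list gave 14 and 16, 14 and 18, and 9 and 12 at P8, and 0 and 3 at P23, where 3 were called without INSL3-KI replicate 2 and 0 without any WT library or INSL3-KI replicate 1.

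A few small effects in P8 gubernaculum changed sign. For INSL3-KI, Notch1 (-0.12) was at 0.20 with library size, 0.22 and 0.24 with limma at pseudocounts of 1 and 0.1, and -0.31 to 0.035 without 1 library, the highest without WT replicate 3, and Notch4 (0.12) was at -0.049 to 0.26 without 1 library, the lowest without WT replicate 1. For INSL3-KO, Notch1 and Notch4 were at 0.45 and 0.43 with the trend removed, and Dll4 (-0.15) was at 0.021 with library size, 0.0050 and 0.0045 with limma at both pseudocounts and 0.28 with the trend removed.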
